A study of Homo sapiens with 8 samples.

Results

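LUC7L, LUC7L2, LUC7L3, RSRP1 (named C1orf63 in the files), PNISR, ARGLU1, SREK1, NKTR, SON and SRRM2 encode nuclear proteins with arginine- and serine-rich (RS) stretches that meet in nuclear speckles, or proteins of the LUC7 family. The 10 genes were taken by symbol from 10 tables of splicing events counted by rMATS, and they hold 231 of 132938 events and are 10 of 12067 genes with an event. The cells were U2OS, a line from a human osteosarcoma, and received 20 nM of siRNA against EGFP, which served as the control, or 20 nM of siRNA #2 against CHERP, a nuclear protein bound to the U2 small nuclear ribonucleoprotein (snRNP). RNA was taken after 48 h from whole cells and from the cytoplasm, and the 8 libraries are 2 per siRNA in either fraction. A single siRNA sequence stands for the loss of CHERP. All groups are the same unedited line. The abundance p-values below rest on the spread between the 2 libraries of each group, moderated over all genes. The splicing p-values rest mostly on a spread shared by events of a type at a like depth, and little on an event's own 2 libraries.

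Nuclear speckles are bodies in which splicing factors gather, and SON and SRRM2 form their core. RS stretches bind one another and hold splicing factors together on the pre-mRNA. LUC7-like proteins are the human relatives of a yeast U1 snRNP subunit and act on the choice of 5′ splice sites. Many genes of this kind carry introns that stay in nuclear RNA or exons that send the transcript to nonsense-mediated decay (NMD), through which the level of their own protein can be set.

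CHERP itself had 103 and 77 event reads in the EGFP siRNA libraries of whole cells and 3 and 10 with CHERP siRNA, a log2 change of -3.45 ± 0.57 (SE; adjusted p = 0.00139, limma). The size of this change depended on the processing, at -1.97 with a pseudocount of 0.1 and at -2.60 and -4.29 without the first and the second CHERP siRNA library. In the cytoplasm it had 31 and 21 reads against 3 and 4. Reads over all events came to 29409956 to 35664568 per whole-cell library and 5370756 to 6580099 per cytoplasmic library, and a read on several events counts at each. Of the mesenchymal markers looked up, VIM was abundant, while COL5A1, ALPL and RUNX2 had 0 to 144 reads and the others hold no event. CDH1, the only epithelial marker with an event, had 1 and 1 reads against 22 and 15 in whole cells, and COL5A1 was higher there by 1.27 ± 0.29 on the log2 scale (adjusted p = 0.00743, limma). ALPL was higher in the cytoplasm by 2.47 ± 0.49 (adjusted p = 0.00163), while RUNX2 had 16 and 18 reads against 0 and 3 in whole cells and 16 and 20 against 3 and 6 in the cytoplasm. Their part in the results below was not tested. The blood markers and the nuclear RNAs looked up hold no event in these tables.

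An inclusion level is the share of the reads that carry the alternative part, after each form is divided by its effective length, and runs from 0 to 1. An event is called here when a quasi-binomial test on the inclusion and skipping reads, with a dispersion moderated by limma over all events of its type, gave a Benjamini-Hochberg adjusted p under 0.05. In whole cells 1 of 13 retained introns of the 10 genes was called, against 3.26% of all 3717 retained introns. Of 105 skipped-exon events 3 were called, all with higher inclusion after CHERP siRNA, against 0.893% of all events of the type. Of 3 alternative 5′ splice sites 1 was called, against 1.13%, and of 7 alternative 3′ splice sites 1 was called, against 1.14%. None of 32 mutually exclusive exon events was called, where 1.6% were in all. At an unadjusted p under 0.05 this test held 4 of them, a share not worked out over all events. At that level limma on the log2 odds held none of the 32, and 1290 of all 13501. The 6 called events lie in 3 genes, RSRP1, PNISR and LUC7L. limma on the log2 odds called no event of any type in either fraction, and at an unadjusted p under 0.05 it held 338 of the 3717 retained introns of whole cells.

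RSRP1, an arginine- and serine-rich protein of little known function, carried the called intron. The intron is intron 3 of the MANE transcript, which has 5 exons, and lies between coding exons at chr1:25570125-25571640 on the minus strand of hg19. It is 1516 nt long, and 1 annotated transcript of the retained-intron class spans it. Its ends, with the intronic dinucleotides in capitals, are shown here because 3 of the 6 called events use them, together with the inner sites of the other RSRP1 forms, all read from GRCh37, the same assembly as hg19.
RSRP1 intron 3, 5′ splice site (chr1:25571635-25571643, minus strand): gaaGTaagt
RSRP1 intron 3, 3′ splice site (chr1:25570122-25570144, minus strand): ctttttcttaacctgtctAGctg
RSRP1 inner 3′ splice site of the 591-nt extension (chr1:25570713-25570735, minus strand): atatatgcaatatattccAGatg
RSRP1 inner 5′ splice site of the 973-nt extension (chr1:25570662-25570670, minus strand): taaGTttat
The 5′ splice site of intron 3 shares 7 of 9 letters with CAGGTAAGT, the letters that pair with U1 RNA, where 69.7% of the 3708 retained introns that could be read shared fewer and 23.7% shared as many. The inner 5′ splice site of the 973-nt extension shares 4 of 9.

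The RSRP1 intron was retained at 0.313 and 0.458 in the EGFP siRNA libraries of whole cells and at 0.716 and 0.651 in the CHERP siRNA libraries. The siRNA groups did not overlap, and the mean level went from 0.386 ± 0.103 to 0.684 ± 0.0457 (SD, n = 2), a difference of 0.298 (adjusted p = 1.03e-05, quasi-binomial test). Intronic reads numbered 457 and 828 with EGFP siRNA against 1105 and 1379 with CHERP siRNA, whereas reads on the spliced form numbered 87 and 85 against 38 and 64. The retained form thus gained reads while the spliced form had fewer in each CHERP siRNA library than in either control.

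The alternative sites of RSRP1 were counted against the same junction reads and are no separate evidence. The level of the 591-nt extension of the next exon (chr1:25570125-25570715), which would start at the inner 3′ splice site, went from 0.295 and 0.447 to 0.689 and 0.663 (adjusted p = 1.97e-07, quasi-binomial test). The level of the 973-nt extension of the exon before (chr1:25570668-25571640), which would end at the inner 5′ splice site, went from 0.238 and 0.370 to 0.655 and 0.545 (adjusted p = 1.24e-06). When only events whose rarer form had 20 reads or more set the dispersion, a choice made after seeing the data, these calls were lost with adjusted p of 0.187 and 0.33, and the intron kept its call at 0.012. Reads inside either extension also lie in the retained intron. Only 1, 0, 0 and 0 reads joined the exon before to the inner 3′ splice site, so the level of the 591-nt extension rests on reads within the intron and not on splicing to that site. For the 973-nt extension, use of its site and full retention cannot be told apart from these counts.

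A 45-nt cassette exon inside the RSRP1 intron (chr1:25570945-25570989) is an exon of 3 annotated transcripts, 2 of them of the NMD class. Its inclusion was 0.0731 and 0.111 with EGFP siRNA against 0.276 and 0.192 with CHERP siRNA, which did not overlap and missed the threshold (adjusted p = 0.652, quasi-binomial test). Within the called intron, the 925-nt stretch up to the inner 3′ splice site was at 0.973 to 1 in the 4 libraries. That level is counted only against reads joined to the inner site and leaves out splicing of the whole intron. It thus shows that the inner 3′ splice site was rarely used with both siRNAs, not that the stretch was kept. A downstream 112-nt intron was retained at 0.993 to 0.997, so its removal was rare with both siRNAs. In the cytoplasm, RSRP1 had 3 exon events with 15 to 44.75 reads per library on average and the 45-nt exon at 0 to 0.0274, and the 1516-nt intron was not analysed there.

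**Figure D1:**
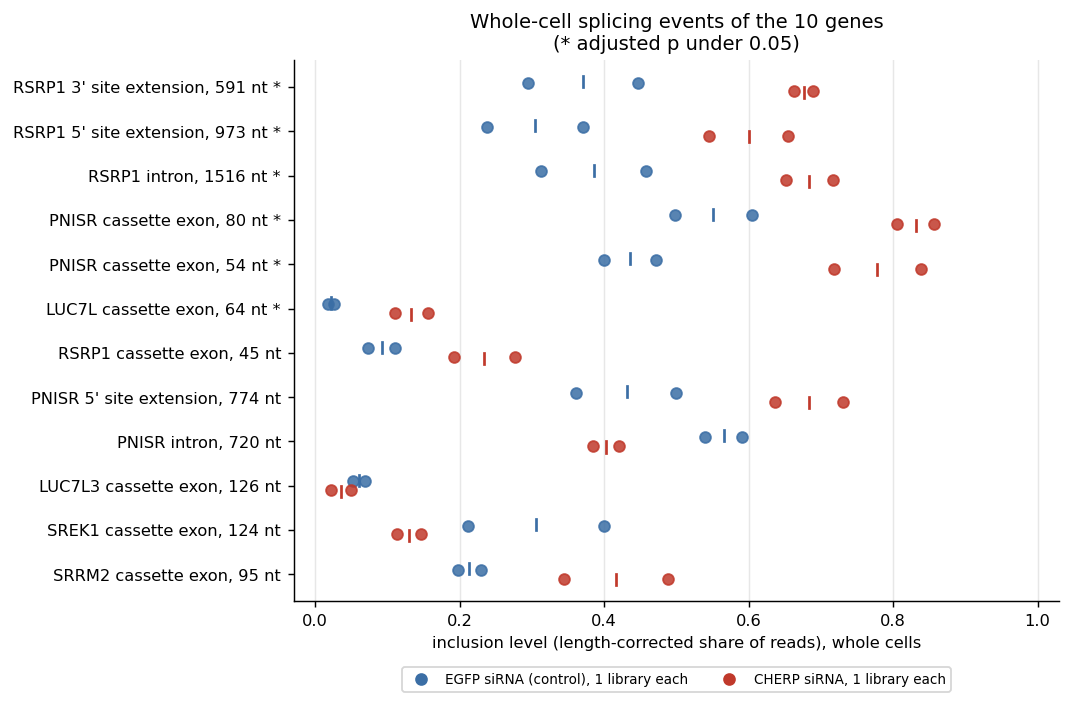
Inclusion level (0 to 1) in each of the 4 whole-cell libraries for the intron, exon and splice-site events of the 10 genes with an unadjusted p under 0.05 and a control mean under 0.95. Dots are libraries, ticks are the means of 2, and asterisks mark the 6 called events, of which the RSRP1 intron went from a mean of 0.386 to 0.684.

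PNISR, an RS-rich protein that binds the speckle protein pinin, had 2 called exons. The first is the 80-nt exon 2 of its 12-exon MANE transcript (chr6:99864225-99864304, minus strand), which lies in the 5′ untranslated part. The second is the 54-nt coding exon 10 (chr6:99851705-99851758), an in-frame length. The splice sites of exon 2 and the whole of exon 10, with its exonic bases in capitals between 10 intronic bases on either side, are shown as the parts that were included more often.
PNISR exon 2, 3′ splice site before it (chr6:99864302-99864324, minus strand): tctactttttttccccctAGggc
PNISR exon 2, 5′ splice site after it (chr6:99864219-99864227, minus strand): gagGTcagt
PNISR exon 10 with flanks (chr6:99851695-99851768, minus strand): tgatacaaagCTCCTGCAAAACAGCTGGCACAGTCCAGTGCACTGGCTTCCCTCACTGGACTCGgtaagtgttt
The site after exon 10 shares 7 of 9 letters with CAGGTAAGT, as does the site after exon 2.

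PNISR exon 2 was included at 0.498 and 0.604 with EGFP siRNA and at 0.856 and 0.805 with CHERP siRNA in whole cells. The groups did not overlap and differed by 0.279 (means 0.551 ± 0.075 and 0.831 ± 0.0364, SD, n = 2; adjusted p = 0.00643, quasi-binomial test). Exon 10 was included at 0.399 and 0.471 with EGFP siRNA and at 0.838 and 0.718 with CHERP siRNA, a difference of 0.343 (adjusted p = 0.0132). Reads that skipped exon 2 went from 57 and 56 to 15 and 17, and those that skipped exon 10 went from 46 and 40 to 11 and 20. Both exons lost their call without the first library of either siRNA or the second of CHERP siRNA, with adjusted p from 0.0823 to 0.849, while the differences stayed between 0.226 and 0.403.

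The 720-nt intron before PNISR exon 10 (chr6:99851759-99852478, intron 9) moved the other way. It was retained at 0.540 and 0.591 with EGFP siRNA and at 0.384 and 0.420 with CHERP siRNA, a difference of -0.163 with no overlap that missed the threshold (adjusted p = 0.221, quasi-binomial test). The 774-nt extension that joins exon 9 to exon 10 over this intron, counted against the reads that skip exon 10, was at 0.361 and 0.5 against 0.731 and 0.637 (adjusted p = 0.0852). Reads that removed the intron numbered 24 and 38 in the controls and 47 and 54 after CHERP siRNA, so that fewer reads skipped exon 10 and more joined it to exon 9. In the cytoplasm exon 10 was at 0.422 and 0.117 with EGFP siRNA and at 0.590 and 0.821 with CHERP siRNA on a mean of 14.25 reads per library, a difference of 0.436 (adjusted p = 0.762).

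LUC7L, LUC7L2 and LUC7L3 are the human members of the LUC7 family. LUC7L had 1 called event, a 64-nt exon at chr16:258600-258663 on the minus strand, which is not part of its 10-exon MANE transcript. The exon is in 2 annotated transcripts, 1 of the NMD class, and codes in neither. Its length is not a multiple of 3. Its splice sites are shown because it is the only called exon outside a MANE transcript.
LUC7L 64-nt exon, 3′ splice site before it (chr16:258661-258683, minus strand): tctattgttttgtttttgAGgtg
LUC7L 64-nt exon, 5′ splice site after it (chr16:258594-258602, minus strand): ccaGTgagt
The exon was included at 0.0171 and 0.0252 with EGFP siRNA and at 0.156 and 0.110 with CHERP siRNA in whole cells. The groups did not overlap, and the level rose by 0.112 (means 0.0212 ± 0.00575 and 0.133 ± 0.0321, SD, n = 2; adjusted p = 0.00183, quasi-binomial test). The inclusion reads behind it numbered 5 and 8 in the controls and 37 and 29 after CHERP siRNA. Without the first CHERP siRNA library the difference was 0.0891 and the call was lost (adjusted p = 0.287). In the cytoplasm the same exon had no inclusion read in the control libraries, on 33 and 25 skipping reads, and 1 in each CHERP siRNA library.

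The other LUC7L events did not pass the test. Its 996-nt intron (chr16:277336-278331) was retained at 0.9 and 0.79 with EGFP siRNA and at 0.934 and 0.946 with CHERP siRNA (adjusted p = 0.728, quasi-binomial test). Its 628-nt last intron (chr16:239339-239966) was at 0.0731 and 0.0479 against 0.0607 and 0.0740, overlapping groups.

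LUC7L2, a splicing factor that is lost in some myeloid cancers, had 8 exon events in whole cells, none called, and those with a mean of at least 10 reads changed by -0.0138 to 0.00441. The files name this gene model LUC7L2 under an identifier that the present annotation gives to the FMC1-LUC7L2 readthrough, and the counts of the overlapping models cannot be told apart. LUC7L3 had 16 exon events in whole cells, none called, and those with a mean of at least 10 reads differed by -0.21 to 0.146. Its 126-nt exon (chr17:48826580-48826705), found in 2 annotated transcripts, 1 of them of the NMD class, was at 0.0687 and 0.0527 with EGFP siRNA and at 0.0495 and 0.0218 with CHERP siRNA (adjusted p = 0.672). That difference did not pass the test, and the exon does not stand for the other LUC7L3 exons outside the MANE transcript.

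SREK1 and ARGLU1 are RS-rich splicing regulators, SREK1 with RNA recognition motifs and ARGLU1 with a glutamate-rich part that also binds a transcription coactivator complex. The SREK1 124-nt exon (chr5:65454637-65454760), an exon of 5 transcripts but not of the MANE transcript, was included at 0.399 and 0.212 with EGFP siRNA and at 0.113 and 0.146 with CHERP siRNA. These groups did not overlap, and the difference of -0.176 missed the threshold (adjusted p = 0.709, quasi-binomial test). Its 1199-nt intron 5 (chr5:65458421-65459619) was retained at 0.0354 and 0.0436 against 0.0632 and 0.0641 (adjusted p = 0.446). The single ARGLU1 event, a 58-nt exon (chr13:107209907-107209964), was at 0.0364 and 0.0311 with EGFP siRNA and at 0.0503 and 0.0291 with CHERP siRNA. ARGLU1 intron retention was not analysed here, since no ARGLU1 intron is in the tables used.

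NKTR, a cyclophilin with a long RS tail, had 4 retained introns in whole cells, which differed by -0.0543 to 0.0891, and none was called. The groups overlapped in all 4. Its 3318-nt intron was retained at 0.844 and 0.713 with EGFP siRNA and at 0.735 and 1 with CHERP siRNA, on 0 to 6 spliced reads per library. Of the core speckle proteins, SON had 17 exon events in whole cells with differences of -0.0397 to 0.0186, and 9 mutually exclusive exon events with differences of -0.073 to 0.00484. The SON exon of 5916 nt had 6784, 8150, 6371 and 6538 inclusion reads and at most 1 skipping read in a library.

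SRRM2 had a 95-nt exon (chr16:2818506-2818600), annotated in 1 NMD transcript alone, that was included at 0.229 and 0.197 with EGFP siRNA and at 0.488 and 0.344 with CHERP siRNA. The groups did not overlap and differed by 0.203, with an unadjusted p of 0.00482 and an adjusted p of 0.274 (quasi-binomial test). In the cytoplasm it was at 0.0482 and 0.0140 against 0.124 and 0.0505. The level was lower in each cytoplasmic library than in any whole-cell library, a difference between fractions that was not tested. The 201-nt SRRM2 intron was retained at 0.00323 to 0.0101 in whole cells with either siRNA.

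Most skipped-exon events of these genes were near full use or full skipping in the controls. The 105 events in whole cells cover 77 distinct exons. How common this is over all genes was not worked out, so whether it is a trait of these genes was not tested. Of 101 skipped-exon events with at least 10 reads per library in whole cells, 87 had a control mean above 0.9 or below 0.1. Of these events 88 of the 98 uncalled ones differed by at most 0.1. The median difference over all 105 was -0.000132, beside -3.18e-06 over all 63977. Of the 105 events, the siRNA groups did not overlap in 11 with higher and 12 with lower levels after CHERP siRNA. Non-overlap alone thus went both ways, and its share over all genes was not worked out.

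In the cytoplasm none of the 71 events of the 10 genes was called. The quasi-binomial test called none of 5 retained introns where 2% were called in all, none of 52 skipped-exon events where 0.254% were, and none of 1 alternative 5′ splice site where 0.617% were. It called none of 5 alternative 3′ splice sites where 0.372% were, and none of 8 mutually exclusive exon events where 0.863% were. At an unadjusted p under 0.05 it held 1 skipped exon, PNISR exon 10, and 1 alternative 3′ splice site, a 53-nt extension in SON. The share of all events that the quasi-binomial test held at that level was not worked out. limma on the log2 odds held 4 of the 52 skipped-exon events at that level, beside 2625 of all 31924. It held no event of the other types. Fewer reads stood behind these values, and 42 of the 52 skipped-exon events had a mean of at least 10 reads.

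**Figure D2:**
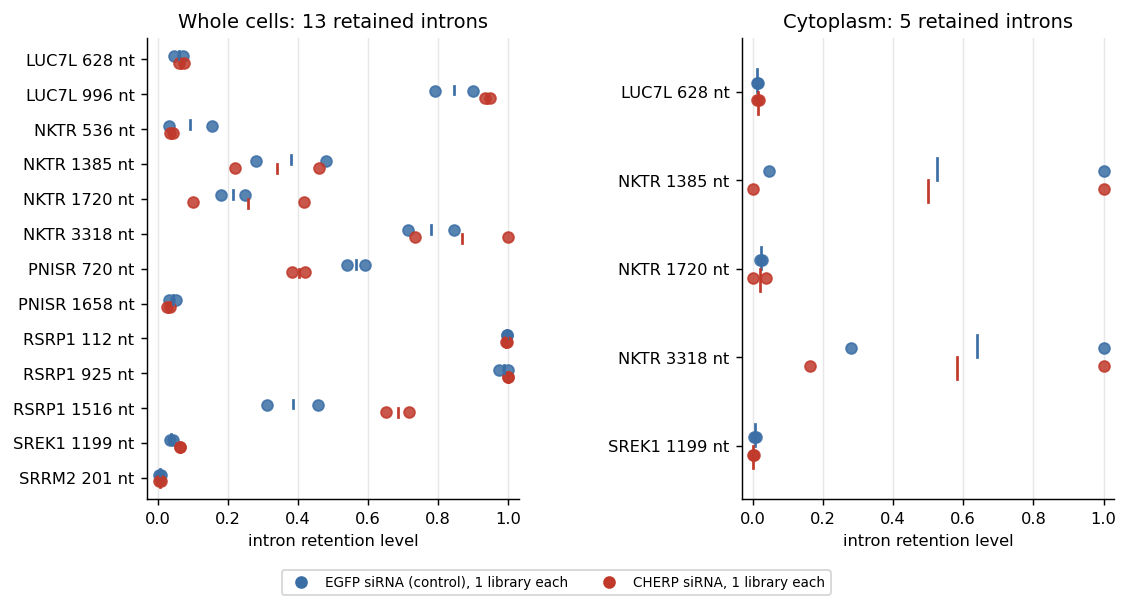
Retention level (0 to 1) of the 13 introns of the 10 genes in whole cells and of the 5 in the cytoplasm. Dots are single libraries and ticks the means of 2 libraries, and the RSRP1 intron of 1516 nt is the only one called.

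The 13 retained introns were poor in G and C. All 13 had a GC content below the median of 55.8% over the retained introns of whole cells, with a range of 29.3% to 55.3% and a median of 33%. Of the 13, 11 were longer than the overall median of 260 nt, and they ran from 112 to 3318 nt with a median of 996 nt. Introns of the same gene share a region, and NKTR, with 4, and RSRP1, with 3, give most of the 13, so these are descriptions with no test. Their 5′ splice sites shared 5 to 7 of 9 letters with CAGGTAAGT, where the overall median is 6.

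With EGFP siRNA alone, 5 of these introns could be compared between whole cells and cytoplasm. Of these, 3 were retained less in the cytoplasm (adjusted p under 0.05, quasi-binomial test), where 27.8% of the 1599 introns compared were called and 25.1% were called lower. The count of 3 went to 1 without the first cytoplasmic EGFP siRNA library, to 0 without the second, and to 1 with limma on the log2 odds or with prior degrees of freedom of 4. The LUC7L 628-nt intron was at 0.0605 in whole cells and 0.0128 in the cytoplasm on average (adjusted p = 0.00029). The SREK1 intron was at 0.0395 and 0.00659 (adjusted p = 0.0029), and the NKTR intron of 1720 nt at 0.215 and 0.0232 (adjusted p = 0.0167). This NKTR intron of 1720 nt averaged under 10 reads per library in the cytoplasm, so its call rests on few reads. The other NKTR introns had 2 and 15.5 reads per library there and were not called. The effective length of the skipping form was 144 in the whole-cell tables and 73 in the cytoplasmic ones, so read length and fraction cannot be told apart in these values. The siRNA effect on an intron differed between fractions for none of the 5 (adjusted p from 0.921 to 1) and for 0.188% of all, none of the 5 had an unadjusted p under 0.05, and limma on the log2 odds called none of them.

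The abundance of a gene was the sum over its skipped-exon and splice-site events of reads per effective nucleotide, scaled to the median ratio between libraries, and is given as a relative level. In whole cells 4 of the 10 genes were lower after CHERP siRNA (adjusted p under 0.05, limma), where 17.7% of 9660 genes were lower and 19% higher. In the cytoplasm 8 of the 10 were lower, where 22.5% of 7293 genes were lower and 25.8% higher, and none was higher in either fraction. The estimate was below 0 for 9 of the 10 in whole cells and for all 10 in the cytoplasm. The median log2 change of the 10 was -0.37 in whole cells and -0.75 in the cytoplasm, beside 0.02 and 0.01 over all genes tested. In RNA from a whole dish, fewer cells with the transcript and less transcript per cell cannot be told apart.

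Among the LUC7 family, LUC7L3 and LUC7L fell in both fractions. The whole-cell level of LUC7L3 was 31.6 and 34.2 with EGFP siRNA against 18.6 and 17.4 with CHERP siRNA, a log2 change of -0.87 ± 0.1 (SE; adjusted p = 0.000218, limma). In the cytoplasm it was 4.82 and 5.43 against 2.54 and 2.83 (-0.93 ± 0.1; adjusted p = 2.56e-05). No library of a siRNA reached the range of the other in either fraction. LUC7L fell from 16.5 and 15.4 to 11.1 and 11.3 in whole cells (-0.51 ± 0.11; adjusted p = 0.00458). It fell from 5.44 and 5.56 to 3.31 and 2.84 in the cytoplasm (-0.84 ± 0.1; adjusted p = 4.06e-05). The whole-cell call of LUC7L was lost without the first or the second CHERP siRNA library (adjusted p = 0.0721 and 0.0572). LUC7L2 was at -0.11 ± 0.13 in whole cells and -0.23 ± 0.11 in the cytoplasm and did not pass in either (adjusted p = 0.536 and 0.0962). In whole cells its level of 8.95 and 10.9 with EGFP siRNA overlapped 9.08 and 9.27 with CHERP siRNA. LUC7L2 passed without the first EGFP siRNA library, at -0.26 in whole cells (adjusted p = 0.0363) and -0.36 in the cytoplasm (adjusted p = 0.0173), and in the cytoplasm with scaling by total reads (-0.34; adjusted p = 0.0199).

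**Figure D3:**
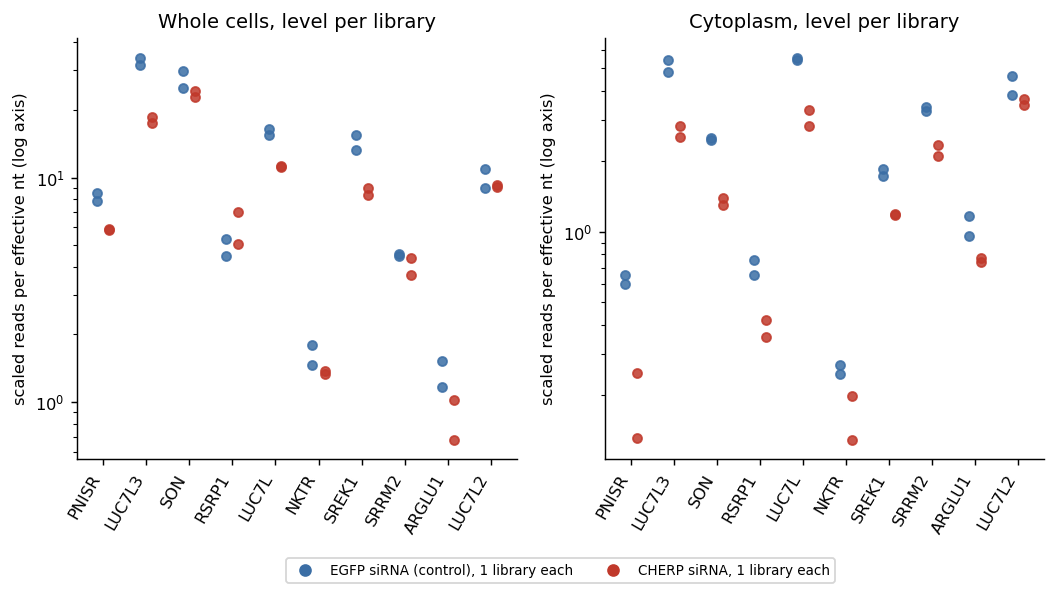
Level of each gene in every library, in scaled reads per effective nucleotide on a log axis, for whole cells and cytoplasm. Levels depend on how many events a gene has and are compared only between siRNAs within a gene. The LUC7L3 libraries with CHERP siRNA sit at 17.4 and 18.6 in whole cells, below both controls.

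PNISR and RSRP1, like LUC7L, carried splicing events called in whole cells and fell in the cytoplasm. LUC7L3, SREK1, ARGLU1, SON and SRRM2 fell there as well and carried no called event. PNISR was at 7.87 and 8.51 with EGFP siRNA against 5.89 and 5.85 with CHERP siRNA in whole cells (-0.48 ± 0.12; adjusted p = 0.0101, limma), a call lost without the first or the second CHERP siRNA library (adjusted p = 0.108 and 0.117) or without a variance trend in limma (adjusted p = 0.0542). In the cytoplasm it was at 0.599 and 0.655 against 0.250 and 0.131, a log2 change of -1.73 ± 0.29 (adjusted p = 0.000526), on 62, 60, 29 and 17 reads. This was the largest fall of the 10 genes in that fraction, a ratio of 0.301 summed over 4 events. The authors' cytoplasmic means gave a smaller fall for PNISR, with a ratio of 0.563, beside 0.567 for LUC7L3. RSRP1 was at 4.49 and 5.32 against 5.07 and 7.01 in whole cells, overlapping groups with a log2 change of 0.29 ± 0.17 (adjusted p = 0.213). In the cytoplasm RSRP1 was at 0.651 and 0.754 against 0.418 and 0.354 (-0.85 ± 0.2; adjusted p = 0.00496), with no overlap. RSRP1 was the only one of the 10 with a positive whole-cell estimate, which without the second EGFP siRNA library was 0.41 with an adjusted p of 0.0196. Without the first EGFP siRNA library it was 0.16 (adjusted p = 0.416), and without the second CHERP siRNA library it was 0.06 (adjusted p = 0.898). Its called 3′ and 5′ splice-site events enter that level, and without them the estimate was 0.43 (adjusted p = 0.0855). Uncalled exon events that overlap the called intron, of 45 and 675 nt, stayed in, so reads in that intron were not all removed.

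Of the splicing regulators, SREK1 fell in both fractions. It was at 13.2 and 15.4 against 8.34 and 8.94 in whole cells (-0.72 ± 0.12; adjusted p = 0.00139, limma). In the cytoplasm it was at 1.73 and 1.86 against 1.18 and 1.19 (-0.6 ± 0.13; adjusted p = 0.00247). ARGLU1 rests on 1 exon event. It was at 1.17 and 1.52 against 1.02 and 0.679 in whole cells (-0.67 ± 0.24; adjusted p = 0.0519) and at 0.959 and 1.17 against 0.745 and 0.776 in the cytoplasm (-0.47 ± 0.17; adjusted p = 0.034). In whole cells ARGLU1 passed without the first EGFP siRNA library (-0.87; adjusted p = 0.00657), without the first CHERP siRNA library (-0.96; adjusted p = 0.0188) and on skipped-exon events alone (-0.68; adjusted p = 0.048). The cytoplasmic call of ARGLU1 was lost without the second EGFP siRNA library (-0.33; adjusted p = 0.229), without the first CHERP siRNA library (-0.44; adjusted p = 0.0797) and without a variance trend in limma (adjusted p = 0.0536). NKTR did not pass in either fraction, with -0.25 ± 0.18 in whole cells and -0.65 ± 0.29 in the cytoplasm (adjusted p = 0.291 and 0.0835), on 19 to 38 reads per cytoplasmic library. NKTR passed in the cytoplasm without the first CHERP siRNA library (-0.93; adjusted p = 0.0313) and with scaling by total reads (-0.76; adjusted p = 0.0497).

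The core speckle proteins passed in the cytoplasm. SON was at 2.52 and 2.47 with EGFP siRNA and at 1.30 and 1.39 with CHERP siRNA there (-0.89 ± 0.12; adjusted p = 9.14e-05, limma), and at -0.21 ± 0.12 in whole cells (adjusted p = 0.181), where it passed without the first EGFP siRNA library (-0.35; adjusted p = 0.00309). SRRM2 was at 3.30 and 3.43 against 2.10 and 2.36 in the cytoplasm (-0.59 ± 0.11; adjusted p = 0.000822) and at -0.17 ± 0.14 in whole cells (adjusted p = 0.361). In whole cells SON lay at 25 and 29.8 against 22.8 and 24.4, and SRRM2 at 4.55 and 4.46 against 3.67 and 4.37. The groups did not overlap for either gene in either fraction.

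**Figure D4:**
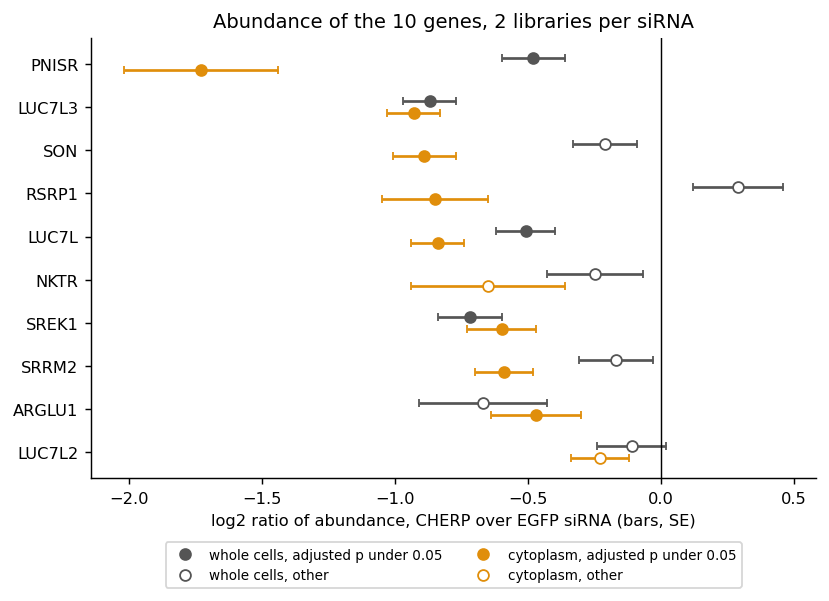
Log2 ratio of abundance, CHERP over EGFP siRNA, for each gene in whole cells (grey) and cytoplasm (orange), with bars of 1 SE from limma. Filled points have an adjusted p under 0.05. All 10 cytoplasmic points lie below 0, from -0.23 for LUC7L2 to -1.73 for PNISR.

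The change itself was compared between fractions in 1 fit over the 8 libraries, added after seeing the data. limma called none of 7059 genes (0%), and 348 had an unadjusted p under 0.05. The level of a gene rests on different events in each fraction. Whole cells and cytoplasm held 19 and 4 events for SON, 15 and 4 for PNISR and 9 and 3 for RSRP1. The part of this in the differences was not tested. The estimate was lower in the cytoplasm than in whole cells for 8 of the 10 genes, and 5 of them had an unadjusted p under 0.05. The difference was -0.68 ± 0.15 for SON (unadjusted p = 0.00101, adjusted p = 0.794), -1.13 ± 0.26 for RSRP1 (0.00122 and 0.858) and -1.25 ± 0.33 for PNISR (0.00312 and 0.901). A difference between fractions is therefore not shown for any single gene.

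The authors' own table of cytoplasmic means, which is limited to genes past their threshold, lists 8 of the 10 genes, all lower with CHERP siRNA. Of the 6757 rows it holds, 3934 were higher with CHERP siRNA. Its columns carry no siRNA name and were assigned by the number of genes said to rise. The authors' mean went from 1480 to 839 for LUC7L3, from 764 to 430 for PNISR and from 4939 to 3348 for SON. The ratios ran from 0.563 for PNISR to 0.766 for SRRM2. LUC7L2 and RSRP1 are not among the rows used here. The list thus differs from the limma calls above for RSRP1, which was called lower in the cytoplasm there. It also differs for NKTR, which did not pass there and is listed with a mean that went from 855 to 588. These means are no separate evidence, since they describe the same cytoplasmic comparison.

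Other genes of the same pathways were counted from lists drawn up with earlier results known. Of 35 further RS-rich or speckle genes, 14 were lower and 1 was higher in whole cells (limma), and the median log2 change was -0.33. In the cytoplasm 20 of 31 tested were lower and none was higher, with a median of -0.57. NSRP1, a speckle splicing regulator, fell by 1.91 ± 0.15 on the log2 scale in whole cells (adjusted p = 2.7e-05), and RSRC2, another RS-rich protein, fell by 0.96 ± 0.09 in the cytoplasm (adjusted p = 8.13e-06). CDK13, a cyclin-dependent kinase with an RS part, was the single gene that rose (0.66 ± 0.17 in whole cells, adjusted p = 0.0139). These shares stood beside 17.7% and 22.5% of all genes lower.

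In the same list, 3 retained introns rose and 1 fell of 29 in whole cells (quasi-binomial test), those of RBM25, RBM39 and RSRC2 and that of DDX46, beside 3.26% of all retained introns called. In the cytoplasm none of 10 was called, beside 2% of all, and none had an unadjusted p under 0.05 or was called by limma on the log2 odds. The RBM25 intron (chr14:73566459-73569899) was at 0.151 and 0.157 with EGFP siRNA and at 0.306 and 0.392 with CHERP siRNA (adjusted p = 1.69e-12). The RBM39 intron (chr20:34326940-34328745) was at 0.112 and 0.164 against 0.294 and 0.259 (adjusted p = 2.66e-12). Of 8 proteins of or beside the U1 snRNP, SNRNP70 and SNRPC, subunits of the particle, were lower in both fractions, and none was higher. That is 2 of 8, beside 17.7% of all genes lower in whole cells and 22.5% in the cytoplasm, a share near the background. SNRNP70 changed by -0.49 ± 0.12 in whole cells and by -0.55 ± 0.06 in the cytoplasm (adjusted p = 0.0108 and 1.53e-05, limma). The median of the 8 was -0.21 in either fraction.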

How the data were processed

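Stranded mRNA libraries were mapped by the authors to hg19 with STAR 2.5.2b (named in the submitters' processing notes), and splicing was counted with rMATS (version not given in the sources used here). The deposited tables hold the reads on each form in each library, without normalization, and another deposited table gives a signal, the authors' mean of normalized counts from RSEM 1.2.25 with GENCODE 19, per siRNA in the cytoplasm. The authors' p-values, FDR, level differences, fold changes and posterior probabilities were not used, nor were 20 columns of levels per library. The siRNA of the 2 mean columns was taken from the number of increased genes in the study's text.

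The 10 genes, the lists and the tests were chosen with earlier results of these data known. All 10 are named. Introns with at least 10 reads on average are described in full where called, and of the other event types up to 3 called events per gene, the event with most reads standing for those that share a part. Some uncalled events were named after their values were seen.

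Inclusion against skipping reads were fitted with a quasi-binomial model whose dispersion was moderated over all events of a type with limma 3.58.1 (R 4.3.3), with a trend on reads and a floor at 1. The prior outweighed the spread of single events, so each took the dispersion usual at its depth. For abundance, genes averaging 20 reads or more entered limma as log2 of the level after adding 0.01. p-values were adjusted by Benjamini-Hochberg over all events of a type or all genes at a threshold of 0.05. Transcripts came from GENCODE 44 lifted to GRCh37. Of 3708 retained introns, 97.9% begin with GT and end with AG in that genome. The retained-intron fit and a limma fit of abundance were tried on simulated data. The introns changed there were well covered, unlike some events here, and the other event types were not simulated. Figures were drawn with matplotlib 3.10.9.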

Additional observations from a re-analysis of the deposited data

How the results depend on the processing

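No called result changed direction under any alternative. The whole-cell calls rest on the shared dispersion. With limma on the log2 odds, or with prior degrees of freedom set to 4, the counts of called introns, skipped exons, alternative 5′ sites and alternative 3′ sites all went to 0, from 1, 3, 1 and 1. Without the dispersion trend 2 alternative 5′ sites were called, and with dispersion from events with 20 reads of the rarer form, added after seeing the data, 0 alternative 5′ and 0 alternative 3′ sites were called. Leaving out 1 library at a time gave 0 to 3 skipped exons (0 without the first CHERP siRNA library), 1 to 2 alternative 5′ sites (2 without the second EGFP siRNA library), 0 to 1 mutually exclusive exons and 2 to 7 genes lower or higher in whole-cell abundance. The 7 came without the first EGFP siRNA library and the 2 without the second CHERP siRNA library, which took the calls of LUC7L and PNISR. Without a variance trend in limma, added after seeing the data, PNISR in whole cells and ARGLU1 in the cytoplasm lost their calls (adjusted p = 0.0542 and 0.0536). For introns that differ between fractions, limma on the log2 odds and prior degrees of freedom of 4 each called 1 in place of 3, and leaving out 1 library gave 0 to 3, with 1 and 0 without the first and the second cytoplasmic EGFP siRNA library. No paired analysis was possible because the reads of both libraries of a siRNA stand in 1 cell with no replicate number. With 2 libraries per group the spread of 1 event is poorly known, and low cytoplasmic depth limits events there.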
